A study of Mus musculus with 6 samples.

Results

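The DNA replication machinery was examined as a set of 45 genes, taken by symbol from the 24421 rows of the deposited count table, in engineered muscle exposed to tumour necrosis factor alpha (TNF-alpha) or to vehicle. All 45 symbols were present, and all 45 had enough reads to be tested among 15792 genes. The set follows a replication origin from recognition to finished strand: the origin recognition complex, the licensing factors, the MCM helicase and its activators, the polymerases, the sliding clamp and its loader, the single-strand binding protein, the enzymes that join Okazaki fragments, and the enzymes that make deoxynucleotides.

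The tissue was a three-dimensional construct of C2C12 cells, a mouse myoblast line, cast in type I collagen and differentiated in medium with horse serum. One group of 3 constructs received TNF-alpha at 100 ng/mL for 72 h, and the other group of 3 received phosphate-buffered saline as vehicle over the same time. The labels call the cells myotubes and the replicates biological. All constructs derive from this single line, and whether replicates were cast from separate cell batches is not stated, so p-values measure the spread between constructs. Polyadenylated RNA was sequenced in strand-specific libraries, with 81713008 to 93533748 counts per library.

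Before a cell can copy its DNA, the origin recognition complex, Cdc6 and Cdt1 load rings of MCM proteins on DNA in G1, and Cdc45 and GINS then turn each loaded ring into a moving helicase in S phase. Many of these genes are transcribed under E2F transcription factors as cells enter S phase, whereas several subunits of the origin recognition complex are made through the whole cell cycle. Myoblasts leave the cell cycle when they fuse, and the nuclei of myotubes do not normally replicate, so replication transcripts in a muscle culture are usually ascribed to the mononucleated cells that remain in it.

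Of the 45 genes, 32 fell, 3 rose and 10 did not pass the test in TNF-alpha constructs. The test was edgeR's quasi-likelihood test with Benjamini-Hochberg adjustment over all genes tested, at an adjusted p under 0.05, and over all 15792 genes 27.9% fell and 27.6% rose. In 15 of the 45 the fall was at least 2-fold, against 9.46% of all genes tested. The 3 TNF-alpha libraries all lay below the 3 vehicle libraries for 35 members (31.9% of all genes tested) and all above them for 3 (32.6%). The median log2 fold change was -0.75 over the members and 0.01 over all genes tested. Summed over the set, the level was 872, 892 and 888 CPM (counts scaled to a common library size) in the TNF-alpha libraries, against 1430, 1234 and 1403 CPM in the vehicle libraries. As a share of all counts the set held 0.0874% ± 0.0006 in TNF-alpha libraries and 0.137% ± 0.011 in vehicle libraries (SD, n = 3 each). In bulk RNA, fewer cycling cells and less RNA per cycling cell cannot be told apart.

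**Figure D1:**
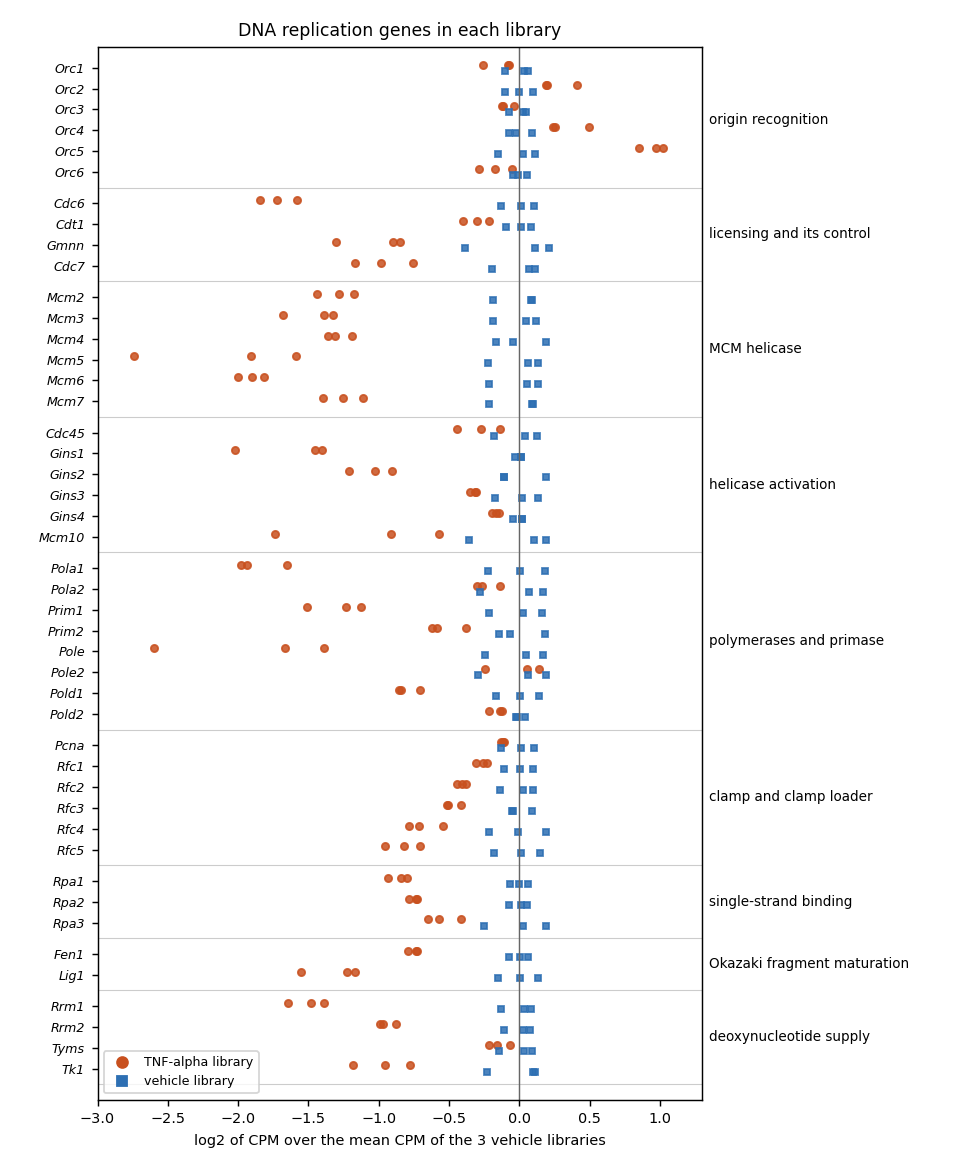
Level of each of the 45 replication genes in each library, as log2 of its CPM over the mean CPM of the 3 vehicle libraries, ordered by role, with TNF-alpha libraries as circles and vehicle libraries as squares. The circles of the MCM helicase genes all lie left of the squares, those of Orc2, Orc4 and Orc5 lie to the right, and those of Pole2, Pcna and Tyms overlap the squares.

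Of the 6 origin recognition genes 3 rose, 0 fell and 3 did not pass the test. These genes encode the complex that marks origins and receives the licensing factors. Orc5, an ATP-binding subunit (GRCm38 chromosome 5, 22486485 to 22550429, minus strand), had 30.4, 29.4 and 27 CPM in the TNF-alpha libraries, against 16.2, 13.5 and 15.2 CPM in the vehicle libraries. All TNF-alpha libraries were well above all vehicle libraries, with a log2 fold change of 0.95 ± 0.09 SE, edgeR adjusted p = 3.67e-05, and values in brackets below are log2 fold changes in the same form. Orc4, another ATP-binding subunit, had 62.4, 52.9 and 52.5 CPM in the TNF-alpha libraries, against 47.2, 43.6 and 42.2 CPM in the vehicle libraries (0.34 ± 0.08 SE, edgeR adjusted p = 0.00804). Orc2, a core subunit, had 54.03, 46.7 and 46.4 CPM in the TNF-alpha libraries, against 43.5, 37.9 and 40.7 CPM in the vehicle libraries (0.27 ± 0.08 SE, edgeR adjusted p = 0.0206). TNF-alpha replicate 1 was the highest library for both Orc4 and Orc2. The Orc2 call was lost without that library (edgeR adjusted p = 0.0511) and without vehicle replicate 2 (edgeR adjusted p = 0.081), in a range of 0.00913 to 0.081 over the alternatives, whereas Orc4 and Orc5 passed in all 15 alternative settings. Orc4 had decimal counts in all 6 libraries, as when reads are shared between features, and Orc2 and Orc5 had them in 2 libraries each. Exons of Gm15421 on the same strand overlap 90 bases of the Orc5 exons. The exons of Orc2 and Orc4 also overlap genes on the opposite strand, and whether the counting made use of strand is not given in the sources used here.

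The other 3 subunits were lower on average in TNF-alpha constructs and did not pass the test. Orc1, the subunit whose protein is cleared from chromatin after licensing in mammalian cells, had 2.77, 3.14 and 3.15 CPM in the TNF-alpha libraries, against 3.47, 3.395 and 3.09 CPM in the vehicle libraries (-0.14 ± 0.13 SE, edgeR adjusted p = 0.42). Orc3, a structural subunit, had 62.96, 59.5 and 59.8 CPM in the TNF-alpha libraries, against 65.9, 61.4 and 66.9 CPM in the vehicle libraries (-0.09 ± 0.06 SE, edgeR adjusted p = 0.217). Orc6, the smallest subunit, had 39.6, 33.7 and 36.4 CPM in the TNF-alpha libraries, against 42.6, 40.7 and 39.8 CPM in the vehicle libraries (-0.17 ± 0.07 SE, edgeR adjusted p = 0.0829). The Orc1 and Orc3 groups overlapped. The Orc6 groups did not, and Orc6 passed the test without TNF-alpha replicate 1 (edgeR adjusted p = 0.0237) and with upper-quartile scaling (edgeR adjusted p = 0.0451), in a range of 0.0237 to 0.226. Per kilobase of transcript, Orc3 and Orc6 were the highest subunits in every library and Orc1 the lowest in all 6. Orc5 reached 13.8 ± 0.828 CPM per kb in TNF-alpha constructs and 7.12 ± 0.649 in vehicle constructs (SD, n = 3), close in TNF-alpha constructs to Orc2 and Orc4, at 13.8 CPM per kb each.

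All 4 genes of licensing and its control fell, by unequal amounts. Cdc6, the ATPase that joins the origin recognition complex to load the helicase, had 1.66, 1.99 and 1.802 CPM in the TNF-alpha libraries, against 6.03, 5.45 and 6.41 CPM in the vehicle libraries. Its TNF-alpha mean was 30.5% of the vehicle mean (log2 fold change -1.71 ± 0.14 SE, edgeR adjusted p = 1.72e-05). Gmnn, encoding geminin, the inhibitor of Cdt1, had 3.46, 4.59 and 4.75 CPM in the TNF-alpha libraries, against 9.89, 6.53 and 9.23 CPM in the vehicle libraries (-1.003 ± 0.19 SE, edgeR adjusted p = 0.00191). Cdc7, the kinase that triggers origin firing, had 2.75, 3.14 and 3.68 CPM in the TNF-alpha libraries, against 6.49, 5.41 and 6.68 CPM in the vehicle libraries (-0.96 ± 0.15 SE, edgeR adjusted p = 0.000739). For each of these genes every TNF-alpha library was below every vehicle library. Cdt1, the loader that geminin holds in check, had 12.6, 13.5 and 14.3 CPM in the TNF-alpha libraries, against 17.6, 15.5 and 16.7 CPM in the vehicle libraries, a smaller difference (-0.30 ± 0.09 SE, edgeR adjusted p = 0.0169). That call did not hold when vehicle replicate 1 was left out (edgeR adjusted p = 0.0613), and over all alternatives the value lay between 0.00621 and 0.0613. The ratio of Cdt1 to Gmnn per transcript length, a pair chosen after its values were seen and not tested, was 1.88, 1.51 and 1.55 in the TNF-alpha libraries, against 0.915, 1.22 and 0.933 in the vehicle libraries.

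All 6 genes of the MCM helicase fell, each at least 2-fold, with log2 fold changes from -2.01 to -1.25 and the lowest median of any role, -1.38. Each encodes a different subunit of the ring that unwinds DNA at the fork. Mcm6 (chromosome 1, 128331590 to 128359664, minus strand) had 17.2, 18.4 and 19.5 CPM in the TNF-alpha libraries, against 71.4, 59.1 and 75.4 CPM in the vehicle libraries. The vehicle libraries stood at more than 3 times every TNF-alpha library, and the log2 fold change was -1.90 ± 0.10 SE, edgeR adjusted p = 1.7e-06. Mcm4 had 19.4, 20.1 and 21.9 CPM in the TNF-alpha libraries, against 56.99, 44.4 and 48.4 CPM in the vehicle libraries (-1.28 ± 0.10 SE, edgeR adjusted p = 1.29e-05). Mcm5 (chromosome 8, 75109569 to 75128439, plus strand) had 4.44, 9.87 and 7.93 CPM in the TNF-alpha libraries, against 32.6, 25.5 and 31.01 CPM in the vehicle libraries (-2.01 ± 0.28 SE, edgeR adjusted p = 0.00116), the lowest estimate of the set, though within its error of Mcm6, Pola1 and Pole. TNF-alpha replicate 1 lay well below the other TNF-alpha libraries for Mcm5, and its standard error was the largest of the 6. Without that library the log2 fold change was -1.74 for Mcm5 and -1.86 for Mcm6, so the order of these genes turned. Mcm2, Mcm3 and Mcm7 fell by 1.29, 1.46 and 1.25 on the log2 scale, with TNF-alpha means of 40.8%, 36.4% and 42.1% of their vehicle means. The calls of all 6 genes held in all 15 alternative settings. Mcm5 carried decimal counts in all 6 libraries, and 172 bases of the Mcm7 exons are shared with the microRNA genes Mir25 and Mir93. Exons of Cops6 and Ap4m1 on the opposite strand overlap 385 bases of the Mcm7 exons.

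The subunits assemble in equal numbers in the protein ring, but their transcripts were not equal in either group. Mcm7 was the highest and Mcm5 the lowest subunit per transcript length in every library. Mcm7 had 9.75 ± 0.975 CPM per kb in TNF-alpha constructs and 23.1 ± 2.79 in vehicle constructs, and Mcm5 had 2.19 ± 0.813 CPM per kb in TNF-alpha constructs and 8.79 ± 1.098 in vehicle constructs (SD, n = 3 each). The highest subunit exceeded the lowest by 6.69, 3.68 and 4.15 times in the TNF-alpha libraries, against 2.57, 2.64 and 2.69 times in the vehicle libraries. The order of the others differed: Mcm6 was second to last in TNF-alpha constructs, at 4.22 ± 0.27 CPM per kb, where it overlapped Mcm2 and Mcm3 within their spread, and second to Mcm7 in vehicle constructs, at 15.8 ± 1.95.

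**Figure D2:**
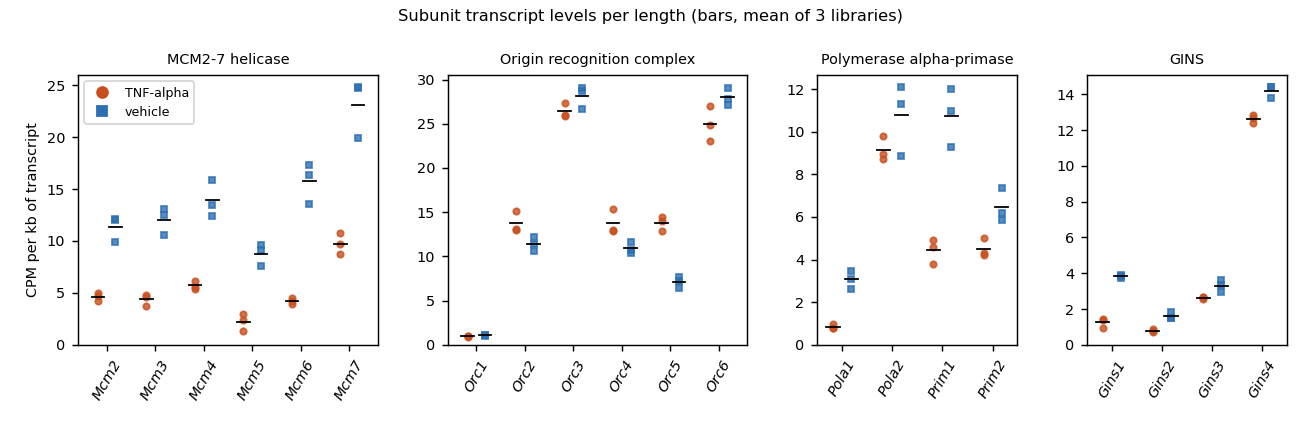
Level per transcript length (CPM per kb) of the subunits of 4 complexes in each TNF-alpha library (circles, left) and vehicle library (squares, right), with bars at the mean of 3 libraries. Every MCM subunit was lower in TNF-alpha libraries, while Orc5 was higher and Pola2 overlapped between the groups although Pola1 did not.

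Because the MCM genes moved together, their promoters are shown beside Orc5, the gene with the largest rise. RefSeq windows on GRCm38.p6, from 250 bases before to 50 bases after each transcription start, were matched by symbol for 37 of the 45 genes, and not for Gins1, Gins2, Gins4, Gmnn, Mcm4, Pole, Prim2 and Rfc2. Capitals mark matches on either strand to the E2F-type motif, searched as TTTCCCGC, TTTCGCGC, TTTGCCGC and TTTGGCGC, in sequences written 5′ to 3′ on the gene's strand.
Mcm3 (chr1:20820263-20820562, minus strand): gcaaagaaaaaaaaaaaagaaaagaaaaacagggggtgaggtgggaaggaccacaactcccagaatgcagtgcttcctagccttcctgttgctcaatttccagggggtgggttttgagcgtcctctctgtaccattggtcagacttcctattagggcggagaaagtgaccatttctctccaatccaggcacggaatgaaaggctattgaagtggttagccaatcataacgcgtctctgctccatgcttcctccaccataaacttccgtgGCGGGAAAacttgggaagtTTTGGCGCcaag
Mcm5 (chr8:75109259-75109558, plus strand): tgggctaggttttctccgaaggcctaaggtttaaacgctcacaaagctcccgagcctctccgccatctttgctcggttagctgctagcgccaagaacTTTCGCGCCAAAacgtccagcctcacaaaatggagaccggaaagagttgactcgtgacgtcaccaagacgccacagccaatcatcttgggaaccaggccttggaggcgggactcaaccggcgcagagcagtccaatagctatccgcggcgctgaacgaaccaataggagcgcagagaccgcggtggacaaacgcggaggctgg
Mcm6 (chr1:128359656-128359955, minus strand): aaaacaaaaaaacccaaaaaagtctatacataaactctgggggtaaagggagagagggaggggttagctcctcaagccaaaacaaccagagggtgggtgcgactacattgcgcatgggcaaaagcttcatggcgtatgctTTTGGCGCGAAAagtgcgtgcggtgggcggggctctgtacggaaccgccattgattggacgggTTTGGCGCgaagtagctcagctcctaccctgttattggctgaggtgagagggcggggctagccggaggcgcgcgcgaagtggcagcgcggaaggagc
Mcm7 (chr5:138171834-138172133, minus strand): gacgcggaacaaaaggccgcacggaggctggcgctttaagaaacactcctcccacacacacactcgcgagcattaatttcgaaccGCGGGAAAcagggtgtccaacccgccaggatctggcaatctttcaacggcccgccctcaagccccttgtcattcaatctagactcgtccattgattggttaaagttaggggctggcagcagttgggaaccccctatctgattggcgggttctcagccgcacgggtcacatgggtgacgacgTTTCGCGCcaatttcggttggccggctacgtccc
Mcm2 (chr6:88898731-88899030, minus strand): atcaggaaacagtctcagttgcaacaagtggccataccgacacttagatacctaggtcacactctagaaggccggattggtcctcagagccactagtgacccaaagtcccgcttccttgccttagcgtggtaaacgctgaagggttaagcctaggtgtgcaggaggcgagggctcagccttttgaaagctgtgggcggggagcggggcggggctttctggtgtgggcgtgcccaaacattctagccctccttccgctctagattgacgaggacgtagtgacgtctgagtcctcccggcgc
Orc5 (chr5:22550289-22550588, minus strand): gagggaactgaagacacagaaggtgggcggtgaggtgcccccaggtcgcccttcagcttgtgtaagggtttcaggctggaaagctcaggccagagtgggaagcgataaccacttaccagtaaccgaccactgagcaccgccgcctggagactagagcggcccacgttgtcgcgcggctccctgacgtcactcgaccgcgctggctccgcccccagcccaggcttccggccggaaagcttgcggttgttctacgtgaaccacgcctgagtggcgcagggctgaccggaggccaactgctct

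In Mcm6 the matches begin at -110, -106 and -47 relative to the start, and the first pair share 4 bases. In Mcm5 they begin at -153 and -149, also overlapping, in Mcm3 at 20 and 39, and in Mcm7 at -165 and 17. The windows of Mcm2 and Orc5 and the other window of Mcm7 hold none of these letters. Over the set, 14 of 46 windows (30.4%), some of them alternative starts of 1 gene, held a match. The share was 2.26% over 32851 windows of all genes and 3.47% over 14681 windows of tested genes. Windows on chromosome 18 were left out of all these counts. Among members that fell it was 11 of 30 windows (36.7%), among those that rose 0 of 6, and among those not past the test 3 of 10 (30.0%), in Orc1, Orc3 and Pole2. The letters CCAAT or their complement, the core of an NF-Y box, occurred in 25 of the 46 windows (54.3%) against 37.4% of all windows and 37.3% of those of tested genes. The letters TTTGAA or their complement, known from promoters of mitotic genes as the cell cycle homology region, occurred in 7 of the 46 (15.2%), against 17.9% of all windows and 12.2% of those of tested genes. Of the 20 mitotic genes described below, which also fell, 17 had a window, and 0 of these 17 windows held an E2F-type match. Kif20a, on chromosome 18, was among the genes without one. Of those 17 windows 82.4% held CCAAT and 70.6% held TTTGAA, on either strand. A match is a description of the letters and not of binding.

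Of the 6 genes that turn the loaded ring into an active helicase, 4 fell, 0 rose and 2 did not pass the test. Gins1, a GINS subunit, had 1.52, 1.03 and 1.58 CPM in the TNF-alpha libraries, against 4.21, 4.21 and 4.09 CPM in the vehicle libraries, 32.95% of the vehicle level (-1.60 ± 0.18 SE, edgeR adjusted p = 0.000125). Gins2, another subunit, had 2.72, 3.08 and 3.35 CPM in the TNF-alpha libraries, against 7.19, 5.84 and 5.85 CPM in the vehicle libraries (-1.05 ± 0.14 SE, edgeR adjusted p = 0.000326). Neither pair of groups overlapped. Gins4 had 17.4, 16.8 and 17.1 CPM in the TNF-alpha libraries, against 19.4, 18.6 and 19.4 CPM in the vehicle libraries, groups that were close but did not overlap (-0.17 ± 0.07 SE, edgeR adjusted p = 0.0694). It passed the test with upper-quartile scaling (edgeR adjusted p = 0.0376) and with library totals alone (edgeR adjusted p = 0.0454), in a range of 0.0376 to 0.152. Gins3 fell, with 6.69, 6.72 and 6.52 CPM in the TNF-alpha libraries, against 9.103, 7.39 and 8.45 CPM in the vehicle libraries (-0.32 ± 0.11 SE, edgeR adjusted p = 0.0329). The Gins3 call was lost without TNF-alpha replicate 1, 2 or 3 and without vehicle replicate 1 or 3, with edgeR adjusted p of 0.0559, 0.0645, 0.0956, 0.117 and 0.0713, and with a replicate block (0.0551), in a range of 0.0173 to 0.117. Exons of Gse1 on the opposite strand overlap 2758 bases of the Gins2 exons, so the Gins2 counts are uncertain if strand was not used.

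Cdc45, which joins the ring and GINS, was not past the test (-0.28 ± 0.11 SE, edgeR adjusted p = 0.0656), with 10.8, 13.4 and 12.2 CPM in the TNF-alpha libraries, against 15.1, 12.9 and 16.04 CPM in the vehicle libraries. Its groups overlapped, and it passed without TNF-alpha replicate 2 (edgeR adjusted p = 0.0446), without vehicle replicate 2 (0.0325), with upper-quartile scaling (0.0448) and with library totals alone (0.0431), in a range of 0.0325 to 0.183. Mcm10, a factor that activates the assembled helicase, had 2.23, 4.98 and 3.94 CPM in the TNF-alpha libraries, against 7.96, 5.79 and 8.47 CPM in the vehicle libraries (-0.997 ± 0.29 SE, edgeR adjusted p = 0.0219). TNF-alpha replicate 1 was again the lowest library. The Mcm10 call was lost without TNF-alpha replicate 3 (edgeR adjusted p = 0.0585), without vehicle replicate 1 (0.067) and without vehicle replicate 3 (0.0562), and over the alternatives the value lay between 0.000621 and 0.067.

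Among the polymerase and primase genes, 5 fell, 0 rose and 3 did not pass the test. The 4 genes of catalytic subunits, Pola1, Prim1, Pole and Pold1, all fell, and the 3 not past the test, Pola2, Pole2 and Pold2, encode partner subunits. The differences between partners were not tested. Prim2, also a partner subunit, fell, and partner subunit genes outside the set, named after their values were seen, went both ways. Pole3 fell (-0.58 ± 0.09 SE, edgeR adjusted p = 0.000499), while Pole4 (0.27 ± 0.07 SE, edgeR adjusted p = 0.00966) and Pold4 rose. Pold3 did not pass the test (-0.24 ± 0.09 SE, edgeR adjusted p = 0.0524). Pola1, the catalytic subunit of polymerase alpha (chromosome X, 93304767 to 93632155, minus strand), had 4.16, 5.22 and 4.29 CPM in the TNF-alpha libraries, against 18.6, 14.1 and 16.5 CPM in the vehicle libraries, 27.8% of the vehicle level (-1.85 ± 0.14 SE, edgeR adjusted p = 1.1e-05). Its accessory subunit gene Pola2 had 21.7, 21.1 and 23.8 CPM in the TNF-alpha libraries, against 29.3, 21.5 and 27.4 CPM in the vehicle libraries (-0.23 ± 0.12 SE, edgeR adjusted p = 0.118). The Pola1 groups lay far apart, whereas the Pola2 groups overlapped. Pola2 had decimal counts in all 6 libraries and Pola1 in 0, so the Pola2 level is less certain. Pola2 passed only without vehicle replicate 2 among the 15 alternatives (edgeR adjusted p = 0.0113), in a range of 0.0113 to 0.352, and its log2 fold change was then -0.36. Prim1, the catalytic primase subunit that lays down the RNA primer, had 7.81, 7.25 and 5.99 CPM in the TNF-alpha libraries, against 19.02, 14.7 and 17.4 CPM in the vehicle libraries (-1.28 ± 0.13 SE, edgeR adjusted p = 6.89e-05). Prim2, the large primase subunit, fell to 69.6% of the vehicle level (-0.52 ± 0.12 SE, edgeR adjusted p = 0.00494).

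Pole, the catalytic subunit of the leading-strand polymerase epsilon (chromosome 5, 110286306 to 110337474, plus strand), had 3.24, 7.51 and 6.195 CPM in the TNF-alpha libraries, against 20.3, 16.5 and 22.04 CPM in the vehicle libraries (-1.80 ± 0.30 SE, edgeR adjusted p = 0.00216). Its partner Pole2 had 5.96, 7.77 and 7.32 CPM in the TNF-alpha libraries, against 7.35, 5.75 and 8.03 CPM in the vehicle libraries (-0.01 ± 0.15 SE, edgeR adjusted p = 0.975). Every TNF-alpha library was below every vehicle library for Pole, and TNF-alpha replicate 1 was lowest, while for Pole2 the groups covered the same range. Exons of Gm49384 on the same strand overlap 245 bases of the Pole2 exons, so the Pole2 counts are less certain. The ratio of Pole to Pole2 per transcript length was 0.130, 0.230 and 0.202 in the TNF-alpha libraries, against 0.658, 0.684 and 0.654 in the vehicle libraries. The ratio of Pola1 to Pola2 was 0.0870, 0.112 and 0.0817 in the TNF-alpha libraries, against 0.288, 0.296 and 0.272 in the vehicle libraries. Both pairs were chosen after their values were seen, and the ratios were not tested. Pold1, the catalytic subunit of the lagging-strand polymerase delta, fell to 57.5% of the vehicle level (-0.80 ± 0.10 SE, edgeR adjusted p = 0.00024). Its partner Pold2 had 20.3, 19.3 and 20.5 CPM in the TNF-alpha libraries, against 22.1, 21.96 and 23.1 CPM in the vehicle libraries (-0.16 ± 0.07 SE, edgeR adjusted p = 0.0766), and passed with upper-quartile scaling (edgeR adjusted p = 0.0397) and with library totals alone (0.0461), in a range of 0.0397 to 0.186.

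The clamp gene Pcna, the best known proliferation marker of the set, did not pass the test, although all 5 genes of the clamp loader fell. Pcna had 99.6, 102 and 101 CPM in the TNF-alpha libraries, against 117, 100.0 and 110.2 CPM in the vehicle libraries (-0.12 ± 0.07 SE, edgeR adjusted p = 0.165). The lowest vehicle library lay among the TNF-alpha libraries, and without that library, vehicle replicate 2, Pcna passed with an edgeR adjusted p of 0.0478 and a log2 fold change of -0.18, in a range of 0.0478 to 0.439. Per transcript length Pcna was the highest of the 45 genes in both groups, at 66.3 ± 0.636 CPM per kb in TNF-alpha constructs and 71.97 ± 5.76 in vehicle constructs (SD, n = 3). The loader RFC opens the clamp and places it on DNA. Rfc5, a small loader subunit, had 8.54, 9.39 and 10.2 CPM in the TNF-alpha libraries, against 16.7, 14.7 and 18.4 CPM in the vehicle libraries (-0.82 ± 0.11 SE, edgeR adjusted p = 0.000309). Rfc3 had 12.3, 13.1 and 12.2 CPM in the TNF-alpha libraries, against 18.6, 16.8 and 16.9 CPM in the vehicle libraries (-0.48 ± 0.08 SE, edgeR adjusted p = 0.00117). Neither overlapped between groups. Rfc4 (-0.68 ± 0.14 SE, edgeR adjusted p = 0.00263), Rfc2 (-0.41 ± 0.08 SE, edgeR adjusted p = 0.00241) and the large subunit gene Rfc1 (-0.26 ± 0.07 SE, edgeR adjusted p = 0.00915) fell too, and the loader genes ranged from 56.5% to 83.3% of their vehicle levels.

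All 3 genes of RPA, which coats single-stranded DNA, fell, to between 55.2% and 68.7% of their vehicle levels. Rpa1, the large subunit, had 45.6, 41.5 and 44.1 CPM in the TNF-alpha libraries, against 82.5, 75.8 and 79.2 CPM in the vehicle libraries (-0.86 ± 0.06 SE, edgeR adjusted p = 9.75e-06). Rpa2 had 11.2, 11.7 and 11.6 CPM in the TNF-alpha libraries, against 19.5, 18.5 and 20.1 CPM in the vehicle libraries (-0.75 ± 0.08 SE, edgeR adjusted p = 6.3e-05). Rpa3 had 6.11, 6.46 and 7.22 CPM in the TNF-alpha libraries, against 10.9, 8.08 and 9.78 CPM in the vehicle libraries (-0.54 ± 0.13 SE, edgeR adjusted p = 0.00784). In each, the highest TNF-alpha library was below the lowest vehicle library. Their levels per transcript length lay within 1.40 to 1.68 times of each other in each library.

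Both Okazaki fragment enzymes fell. Fen1, the nuclease that trims the flap left by the primer, had 11.4, 11.9 and 11.9 CPM in the TNF-alpha libraries, against 20.5, 18.8 and 19.8 CPM in the vehicle libraries (-0.75 ± 0.08 SE, edgeR adjusted p = 6.39e-05). Lig1, the ligase that seals the nick, had 9.695, 12.7 and 12.2 CPM in the TNF-alpha libraries, against 28.5, 25.6 and 31.1 CPM in the vehicle libraries (-1.30 ± 0.12 SE, edgeR adjusted p = 3.12e-05). The Lig1 mean was 40.5% of its vehicle level and the Fen1 mean 59.5%. Exons of Tmem258 and Gm10143 on the opposite strand overlap 2039 bases of the Fen1 exons, so the Fen1 counts are uncertain if strand was not used.

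Of the deoxynucleotide genes, 3 fell, 0 rose and 1 did not pass the test. Rrm1, the large catalytic subunit of ribonucleotide reductase, had 26.8, 32 and 30.01 CPM in the TNF-alpha libraries, against 88.9, 76.5 and 85.95 CPM in the vehicle libraries (-1.50 ± 0.09 SE, edgeR adjusted p = 2.47e-06). Rrm2, its small subunit, which is made in S phase, had 51.6, 55.7 and 52.2 CPM in the TNF-alpha libraries, against 104, 94.8 and 108 CPM in the vehicle libraries (-0.94 ± 0.07 SE, edgeR adjusted p = 8.34e-06). Tk1, the cytosolic thymidine kinase of the salvage route, had 9.401, 11 and 12.4 CPM in the TNF-alpha libraries, against 23, 18.1 and 22.7 CPM in the vehicle libraries (-0.96 ± 0.13 SE, edgeR adjusted p = 0.000316). These groups lay apart. Tyms, which makes thymidylate from deoxyuridylate, had 22.4, 23.97 and 21.6 CPM in the TNF-alpha libraries, against 26.8, 22.8 and 25.7 CPM in the vehicle libraries, with overlapping groups (-0.14 ± 0.08 SE, edgeR adjusted p = 0.168). The ratio of Rrm1 to Rrm2 per transcript length, chosen after its values were seen and not tested, was 0.284, 0.315 and 0.315 in the TNF-alpha libraries, against 0.468, 0.443 and 0.437 in the vehicle libraries. Rrm2, Tk1 and Tyms had decimal counts in 5 or 6 libraries.

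Per transcript length, Pcna was followed in TNF-alpha constructs by Orc3, Orc6 and Rrm2, whose values overlapped within their spread, and in vehicle constructs by Rrm2 and then by Orc3 and Orc6, which overlapped. Rrm2 had 24.3 ± 1.01 CPM per kb in TNF-alpha constructs and 46.6 ± 3.06 in vehicle constructs (SD, n = 3). In TNF-alpha constructs the lowest was Cdc6, at 0.394 ± 0.036 CPM per kb, followed by Mcm10, Gins2, Pole and Pola1 between 0.763 and 0.852, whose values overlap within their spread. In vehicle constructs Orc1 and Cdc6 were the lowest, at 1.10 ± 0.07 and 1.29 ± 0.11 CPM per kb.

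**Figure D3:**
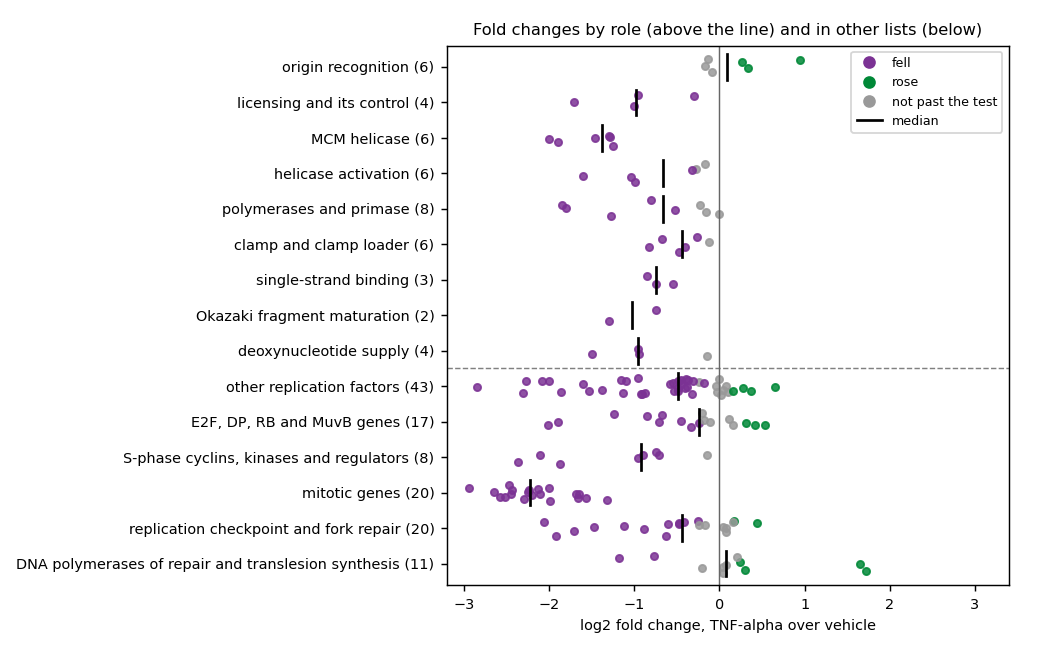
Log2 fold change (TNF-alpha over vehicle) of each gene, coloured by whether it fell, rose or did not pass the edgeR test, with a black bar at the median of each list and the number tested in brackets. The MCM helicase has the lowest median of the replication roles (-1.38), origin recognition is the only role with genes that rose, and the mitotic genes lie lower still, at a median of -2.23.

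Other replication factors, a separate list of 45 genes of which 43 were tested, counted 31 that fell, 4 that rose and 8 that did not pass the test, with a median log2 fold change of -0.49. Chaf1b, a subunit of the chromatin assembly factor that follows the fork, averaged 2.56 ± 0.49 CPM in TNF-alpha constructs and 10.3 ± 0.97 in vehicle constructs (SD, n = 3; log2 fold change -2.01 ± 0.16 SE, edgeR adjusted p = 1.67e-05). Topbp1, which helps load Cdc45, fell by 1.14 ± 0.10 SE on the log2 scale (edgeR adjusted p = 2.08e-05). Pclaf, a PCNA-binding protein listed under its older symbol 2810417H13Rik, had 0.542, 3.13 and 2.84 CPM in the TNF-alpha libraries, against 17.1, 11.9 and 17.8 CPM in the vehicle libraries (-2.85 ± 0.60 SE, edgeR adjusted p = 0.00888). TNF-alpha replicate 1 was again the lowest. Pold4, the smallest subunit of polymerase delta, rose (0.65 ± 0.11 SE, edgeR adjusted p = 0.00135). Pclaf and Pold4 had decimal counts in all 6 libraries.

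Regulators of S-phase entry were taken as 17 tested genes, 13 of the E2F, DP and RB families and 4 of the MuvB complex that works with them. Of these, 9 fell (52.9%), 3 rose and 5 did not pass the test. Of all genes tested, 27.9% fell and 27.6% rose. The MuvB genes made up 2 of the 9 that fell, Lin9 and Lin37, and 2 of the 5 not past the test, Lin52 and Lin54. E2f1, an activator of replication genes, rose, with 34.4, 34.6 and 35.9 CPM in the TNF-alpha libraries, against 23.8, 22.1 and 26.5 CPM in the vehicle libraries (0.54 ± 0.08 SE, edgeR adjusted p = 0.000466). Its counts had decimals in all 6 libraries. E2f2, also an activator, fell (-1.23 ± 0.09 SE, edgeR adjusted p = 1.28e-05), as did Tfdp2, a dimer partner of E2F proteins (-0.85 ± 0.10 SE, edgeR adjusted p = 0.000129). The other genes that rose were E2f3 (0.41 ± 0.08 SE, edgeR adjusted p = 0.00212) and E2f5 (0.31 ± 0.09 SE, edgeR adjusted p = 0.0147). The furthest falls of the 17 were those of E2f7 (-2.02 ± 0.235 SE, edgeR adjusted p = 0.000266) and E2f8 (-1.90 ± 0.37 SE, edgeR adjusted p = 0.00684). These genes were named after their values were seen. Ccnd1, the cyclin that opens the way to S phase, rose (1.66 ± 0.19 SE, edgeR adjusted p = 0.000351), with 233, 308 and 233 CPM in the TNF-alpha libraries, against 70.9, 70.3 and 103 CPM in the vehicle libraries. Cdkn1a, encoding the inhibitor p21, rose as well (0.46 ± 0.10 SE, edgeR adjusted p = 0.00327), with 1596, 1471 and 1404 CPM in the TNF-alpha libraries, against 993, 1216 and 1045 CPM in the vehicle libraries. Of 8 S-phase cyclins, kinases and their regulators 7 fell and 0 rose, and the phosphatase gene Cdc25a did not pass the test. The smallest p-values were those of the kinase gene Cdk2 (-0.90 ± 0.06 SE, edgeR adjusted p = 4.29e-06) and of Fbxo5, an inhibitor of the anaphase-promoting complex (-1.87 ± 0.17 SE, edgeR adjusted p = 2.87e-05). The furthest falls were those of the cyclin gene Ccna2 (-2.37 ± 0.29 SE, edgeR adjusted p = 0.000776) and the kinase gene Cdk1 (-2.12 ± 0.36 SE, edgeR adjusted p = 0.00365), named after their values were seen.

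All 20 mitotic genes fell, with a median log2 fold change of -2.23. The smallest p-values were those of Kif20a, a kinesin of cytokinesis (-2.24 ± 0.33 SE, edgeR adjusted p = 0.00208), and Plk1, a mitotic kinase (-2.52 ± 0.40 SE, edgeR adjusted p = 0.00229). The proliferation marker Mki67 had 3.49, 24.3 and 13.4 CPM in the TNF-alpha libraries, against 79.8, 56.9 and 86.1 CPM in the vehicle libraries (-2.44 ± 0.65 SE, edgeR adjusted p = 0.0222). Its call was lost without TNF-alpha replicate 3 (edgeR adjusted p = 0.0743), vehicle replicate 1 (0.0537) or vehicle replicate 3 (0.0633), with no filter on low counts (0.0645) and with a replicate block (0.0608), in a range of 0.00195 to 0.0743. Summed, the mitotic genes had 59.2, 208 and 142 CPM in the TNF-alpha libraries, against 642, 462 and 751 CPM in the vehicle libraries. Within the TNF-alpha group the highest mitotic sum was more than 3 times the lowest, whereas the sum of the 45 replication genes lay between 872 and 892 CPM. That level sum hides opposite orders within it: TNF-alpha replicate 1 was the highest of its group for origin recognition (252, 225 and 225 CPM in the 3 TNF-alpha libraries) and the lowest for the MCM helicase (92.6, 109.9 and 109.7 CPM).

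**Figure D4:**
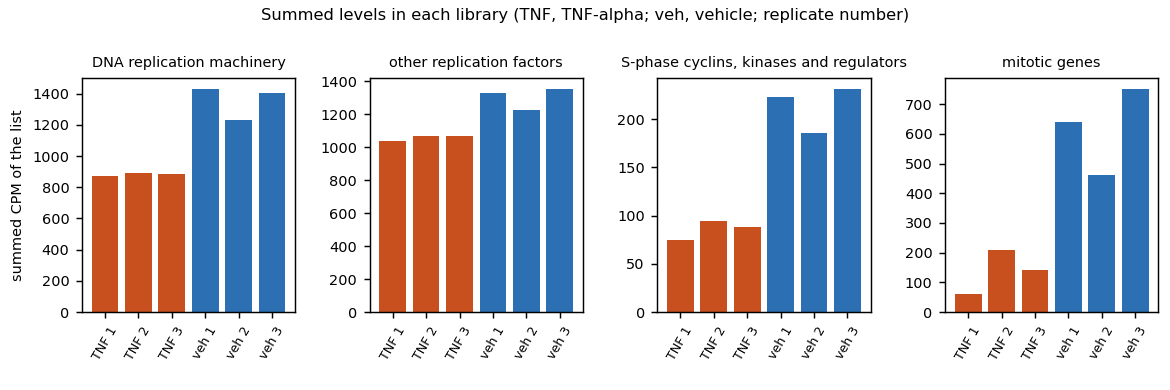
Summed CPM of the 45 replication genes and of 3 related lists in each library, TNF-alpha libraries left and vehicle libraries right, with bars from 0. The replication sum is nearly level across TNF-alpha libraries (872 to 892 CPM) while the mitotic sum runs from 59.2 to 208 CPM.

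TNF-alpha replicate 1 was the lowest TNF-alpha library for 29 of the 45 members and vehicle replicate 2 the lowest vehicle library for 41. The same libraries had the lowest mitotic sum of their groups. The coefficient of variation between TNF-alpha libraries was 38.7% for Pole, 37.4% for Mcm10 and 37.1% for Mcm5, against a median of 8.67% over the members and 10.4% in vehicle libraries. Without TNF-alpha replicate 1, 32 members fell and 2 rose, and without vehicle replicate 2, 35 fell and 2 rose.

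Of 20 genes of the replication checkpoint and fork repair, 12 fell, 2 rose (Rad18 and Rad17) and 6 did not pass the test. The count that rose was 0 without TNF-alpha replicate 2 or 3 and without vehicle replicate 1 or 2, and 1 without either remaining library. Mms22l, which protects stalled forks, fell (-0.88 ± 0.11 SE, edgeR adjusted p = 0.000151), as did the exonuclease gene Exo1 (-2.06 ± 0.27 SE, edgeR adjusted p = 0.000251). Rad18, the ligase that ubiquitinates PCNA, rose (0.44 ± 0.15 SE, edgeR adjusted p = 0.0309). Rad17, a checkpoint clamp loader gene, had a smaller rise (0.17 ± 0.06 SE, edgeR adjusted p = 0.0418). Without TNF-alpha replicate 2 or 3 or vehicle replicate 1 or 2, Rad18 was not past the test, with edgeR adjusted p of 0.101, 0.0792, 0.0987 and 0.104, in a range of 0.00505 to 0.104. The 11 polymerases of repair and translesion synthesis do not copy the bulk of the genome. Of these, 4 rose, 2 fell (18.2%) and 5 did not pass the test. Over all genes tested 27.6% rose and 27.9% fell, and a difference of this list from those shares was not tested. Polk, a translesion polymerase, had 40.2, 43.04 and 37.8 CPM in the TNF-alpha libraries, against 12.8, 13.1 and 12.6 CPM in the vehicle libraries (1.65 ± 0.07 SE, edgeR adjusted p = 6.25e-07). Polm, an end-joining polymerase, rose by 1.73 ± 0.08 SE on the log2 scale (edgeR adjusted p = 8.6e-07). Rev3l, the catalytic subunit of polymerase zeta, fell (-0.77 ± 0.06 SE, edgeR adjusted p = 1.35e-05).

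Markers of other cell states moved with these results, and their part in the changes was not tested. Myotube markers were abundant in every library, with a sum of 6496 to 7522 CPM in TNF-alpha libraries and 11510 to 13090 CPM in vehicle libraries, and 9 of 10 fell. Of 7 myoblast markers 4 fell and 2 rose, with sums of 1978 to 2009 CPM in TNF-alpha libraries and 2109 to 2547 CPM in vehicle libraries. Of 5 tested fibroblast markers 3 fell and 2 rose, with sums of 6371 to 6685 CPM in TNF-alpha libraries and 3209 to 3560 CPM in vehicle libraries, most of it Dcn. Leukocyte markers summed to 20.7 to 22.6 CPM in TNF-alpha libraries and 5.20 to 5.25 CPM in vehicle libraries, mostly Cd68, and all 3 that were tested rose. The defining leukocyte gene Ptprc was at 0 counts in all 3 TNF-alpha libraries and at 2 to 4 counts in vehicle libraries, and the T cell gene Cd3e was also at 0 in the TNF-alpha libraries. Endothelial markers summed to at most 1.59 CPM in a TNF-alpha library and 3.69 CPM in a vehicle library, and 1 of 3 tested fell.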

How the data were processed

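The authors deposited one table of counts per gene symbol for 6 libraries, taken here for estimated (expected) counts. TopHat2 2.1.1, Bowtie2 2.3.5.1, featureCounts, Subread 2.0.0 and DESeq2 are named, with mm10 and GRCm38 as builds, per the submitters' processing notes, which give no roles here. Counting options and use of strand are not stated in the sources used here. Besides the overlaps given above, opposite-strand exons overlap those of Cdc45, Lig1, Orc1, Orc6, Pole, Rfc2, Rfc4, Rfc5 and Tk1. These overlaps run from 78 bases in Pole to 952 bases in Rfc2. Same-strand exons of Gm47300 overlap 44 bases of the Rpa1 exons. Between 20.1% and 21.0% of a library's values carry decimals, although the submitters' design text calls the counts integers, so they were taken for estimated counts and rounded, and how reads were split between features is not known here. Genes were filtered with filterByExpr, scaled with TMM and tested by group with edgeR 4.0.16 in R 4.3.3 (glmQLFit, robust). Standard errors derive from the F statistic. CPM are scaled by TMM. Transcript lengths (the longest basic coding transcript) and positions come from GENCODE M21 on GRCm38. Differences between replicates exceed counting noise (chi-square per degree of freedom 23.1 to 70.6), so no library was counted as a duplicate.

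The members and lists were chosen with earlier results of these data known. Per-library values are given, within each role, for the pair of genes with the smallest p and the one with the largest p, and for whole roles of up to 4 genes or with opposite directions, and Pole, Mcm10, Cdc45, Gins3, Pola2, Pold2 and Polk were added after their values were seen. In each other list the pair with the smallest p in the main direction and 1 in the other were named, with E2f1, Cdkn1a, Ccnd1, Mki67 and Pclaf. Alternatives were 3 scalings, 2 filters, DESeq2 1.42.0, limma-voom (limma 3.58.1), no robust estimation, a replicate block and leaving out each library. The fits were also run on simulated counts in which far fewer genes changed than were called here. No error rate for these data is taken from that run.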

Additional observations from a re-analysis of the deposited data

How the results depend on the processing

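The count of members that fell was 32 and ranged from 29 to 36 over the 15 alternatives, and the count that rose was 3 and ranged from 2 to 3. The median log2 fold change of the members ranged from -0.79 to -0.73. Of the 32 members that fell, 29 passed in every alternative, the exceptions being Cdt1, Gins3 and Mcm10. Of the 3 that rose, 2 did, the exception being Orc2. With DESeq2 and with limma-voom 32 members fell and 3 rose. Scaling by upper quartile or by library totals moved the median of all genes to -0.03 on the log2 scale and the members that fell to 36 and 35. Pole2, not past the test, had a log2 fold change of -0.14 to 0.10 without 1 library, turning positive without TNF-alpha replicate 1 and without vehicle replicate 1 or 3 (adjusted p of 0.614, 0.932 and 0.664). The cause was not tested. The mitotic genes that fell numbered 14 to 20, with 14 without TNF-alpha replicate 3 and 15 with the replicate block. The checkpoint and fork repair genes that rose numbered 2, 1 with upper-quartile scaling, library totals alone, no filter or the replicate block, and 0 to 1 without 1 library. Depth limits little here, as the members had 88 or more counts in each library.

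The replicate numbers showed no pairing of the samples: deviations from the group means of same-numbered libraries correlated at 0.04, -0.05 and -0.11. Those of differently numbered libraries correlated at -0.07 to 0.11. With 3 libraries per group, these values cannot decide whether same-numbered constructs were made together. With the replicate number as a block, 31 members fell and 3 rose, and Gins3 was the member lost. Over all genes 4244 fell and 4242 rose with the block.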

Other observations

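Among the other replication factors, some further genes of deoxynucleotide metabolism were chosen here after their values were seen. Rrm2b, the ribonucleotide reductase subunit of resting cells, averaged 32.9 CPM in TNF-alpha constructs and 32.5 CPM in vehicle constructs (0.02 ± 0.06 SE, edgeR adjusted p = 0.824). Tk2, the mitochondrial thymidine kinase, rose (0.37 ± 0.07 SE, edgeR adjusted p = 0.00138). Dut, which supplies the substrate of thymidylate synthesis, fell (-0.37 ± 0.11 SE, edgeR adjusted p = 0.0175). Samhd1, which breaks down deoxynucleotides, fell as well (-0.49 ± 0.07 SE, edgeR adjusted p = 0.000365). The clamp-loader genes of the alternative complex with CTF18, Chtf18 and Dscc1, fell by 1.61 and 2.09 on the log2 scale, while Chtf8 did not pass the test (-0.001 ± 0.07 SE, edgeR adjusted p = 0.989).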
